A study of Homo sapiens with 9 samples.

Results

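γH2AX ChIP-seq peak lists were compared between cells treated with hydroxyurea (HU) and cells treated with methyl methanesulfonate (MMS), 2 lists for each drug out of 8 peak lists in the series. GM07027, given in the sample labels as GM09027A, is an established human B-lymphocyte line. HU was given at 2 mM and MMS at 200 μM, each for 24 h and each to 2 separate cultures that were immunoprecipitated on their own. The 2 lists of untreated cells of the same line serve as the background throughout, and the aphidicolin lists were not used here. Only peaks on the 22 autosomes were counted. The HU lists held 79891 and 69922 such peaks, the MMS lists 12202 and 10465, and the lists of untreated cells 4779 and 4327. A peak is a stretch of the genome where the precipitated DNA gave more reads than the input in the authors' peak calling. The lists give no numbers of reads, and the depth of the libraries is therefore unknown.

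HU inhibits ribonucleotide reductase, the enzyme that makes deoxyribonucleotides, and so empties the nucleotide pool that DNA polymerases draw on. MMS methylates bases of the template, some of which block the polymerases until base excision repair or direct reversal removes them. Both kinds of stalled fork activate the kinase ATR, which phosphorylates the histone variant H2AX at the chromatin around the fork, and the phosphorylated form, γH2AX, also spreads around broken ends. Common fragile sites, which break under replication stress, often lie in very long genes.

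Because the HU lists held several times more peaks than the MMS lists, each region was described by its share, which is the number of peaks with their midpoint in the region per 10,000 autosomal peaks of the same list (or in percent, where stated). A region with 0 peaks in both lists of a drug can have a share of up to 0.200 per 10,000 under HU and up to 1.32 per 10,000 under MMS, taking 3 peaks over both lists as the limit that a count of 0 allows. A fold given as "at least" is the share of the other drug over both of its lists divided by this limit. Beside it stands the lower limit of the 95% exact binomial interval of the ratio, which also covers the counting error of the other drug. A region was called higher under one drug where both of its lists lay above both lists of the other. Single values were also compared with an exact permutation test, two-sided, for which 2 lists against 2 cannot give a p below 0.333. Bins and genes were in addition tested in limma, with a mean share of at least 1 per 10,000 required and p-values adjusted by Benjamini-Hochberg. All such p-values measure only the spread between the 2 lists of a drug. Where both lists of a drug hold 0 peaks they show no spread, and a limma p-value there rests on the 0 counts. Shares are relative within a list: a lower share does not mean fewer peaks, and a rise in one part of the genome lowers the share of the rest.

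To show the kind of DNA that lay under these peaks, the strongest peak by fold enrichment is given from HU replicate 1 and from MMS replicate 1 in each of 2 bins of 1 Mb, the one with the largest excess of HU and the one with the largest excess of MMS. Each sequence is 200 bases of the plus strand of GRCh38 around the midpoint of the peak, with CG dinucleotides in capitals.
HU 1, chr2:38638784-38638983, between genes: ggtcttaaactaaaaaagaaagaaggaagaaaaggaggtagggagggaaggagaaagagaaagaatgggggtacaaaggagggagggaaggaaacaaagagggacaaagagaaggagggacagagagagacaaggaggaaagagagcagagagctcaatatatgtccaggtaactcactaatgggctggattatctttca
MMS 1, chr2:38495401-38495600, between genes: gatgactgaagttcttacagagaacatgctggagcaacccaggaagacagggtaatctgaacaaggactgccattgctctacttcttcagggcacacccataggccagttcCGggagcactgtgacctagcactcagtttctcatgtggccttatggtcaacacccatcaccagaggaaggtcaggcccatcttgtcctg
HU 1, chr9:600829-601028, in an intron of KANK1: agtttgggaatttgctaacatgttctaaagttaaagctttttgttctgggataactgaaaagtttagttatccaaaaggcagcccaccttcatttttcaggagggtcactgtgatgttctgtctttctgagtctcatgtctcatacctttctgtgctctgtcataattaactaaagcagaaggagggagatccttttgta
MMS 1, chr9:378397-378596, in an intron of DOCK8: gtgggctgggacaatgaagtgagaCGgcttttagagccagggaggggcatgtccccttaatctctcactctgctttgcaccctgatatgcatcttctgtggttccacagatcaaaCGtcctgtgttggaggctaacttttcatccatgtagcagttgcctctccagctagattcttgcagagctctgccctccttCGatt

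The first of these sequences is a long stretch of A and G with 44.5% GC and no CG, and the second, from the same bin, has 52.0% GC and 1 CG. On chromosome 9 the HU peak had 38.5% GC and no CG and the MMS peak 51.0% GC and 3 CG. The fold enrichments of the 4 peaks, in the same order, were 3.52, 2.65, 3.36 and 3.16. These 4 peaks are examples, and the base composition of all peaks is given further on.

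The genome was first divided into 1 Mb bins to ask where the peaks of each drug were concentrated, and 2765 bins with at least 50% assembled bases were kept. HU was higher in 564 bins (20.4% of the bins) and MMS in 876 bins (31.7%), and the lists overlapped in 1325. The HU-higher bins held 61.0% and 62.5% of the peaks of the HU lists against 33.5% and 30.9% of those of the MMS lists. The MMS-higher bins held 40.6% and 43.4% of the MMS peaks against 15.4% and 14.9% of the HU peaks. Across all bins, the Spearman correlation of the shares was 0.97 between the HU lists, 0.82 between the MMS lists and 0.80 to 0.82 between a list of one drug and a list of the other. These coefficients describe 2765 bins that share base composition and gene content. In limma, 1628 bins could be tested, and HU was higher in 252 (15.5%) and MMS in 415 (25.5%). Without MMS replicate 1 or MMS replicate 2, 0 bins were called in either direction, and without HU replicate 1 or HU replicate 2 there were 88 and 92 bins with HU higher and 131 and 153 with MMS higher. In such a fit the list left alone is assumed to vary like the pair of the other drug, so these counts also depend on which pair gives the spread. With an unscaled prior count and no filter, 259 and 1412 bins were called. With each HU and MMS list cut to its 10465 strongest peaks, the counts were 66 and 169 in limma and 333 and 846 by the order of the lists.

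**Figure D1:**
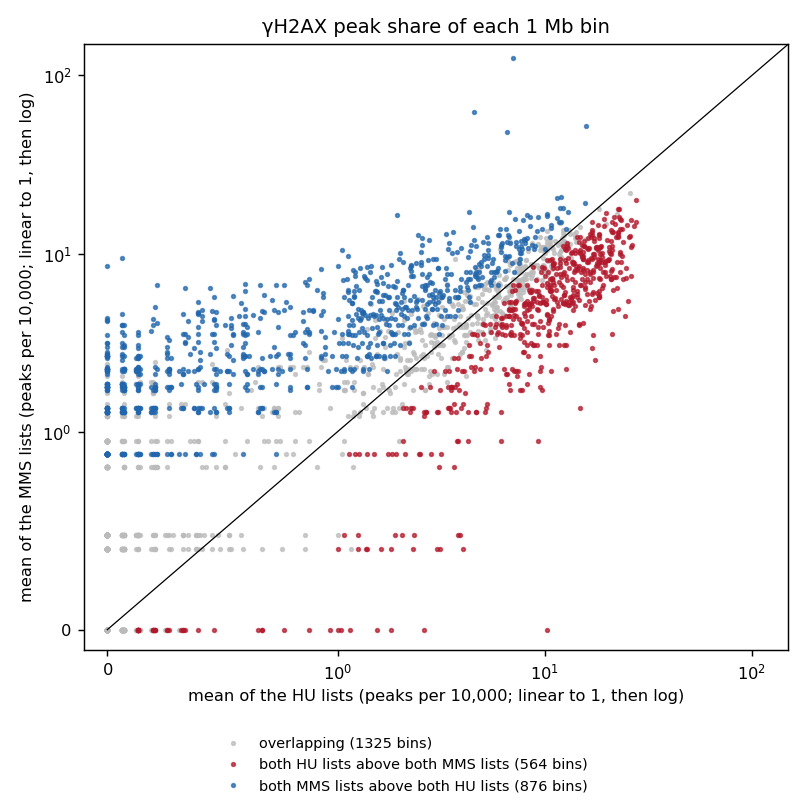
Each point is one of the 2765 bins of 1 Mb, with the mean share of the HU lists on the x axis and that of the MMS lists on the y axis (peaks per 10,000; both axes linear up to 1 and logarithmic above). The 564 red bins have both HU lists above both MMS lists and reach the right edge of the cloud at about equal, moderate MMS shares, the 876 blue bins have the reverse order, and 4 blue bins stand above all others with MMS shares of 48.2 to 125.6.

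The HU-higher bins were richer in genes than the MMS-higher bins. The median share of bases in protein-coding genes was 59.3% in the HU-higher bins, 47.1% in the MMS-higher bins and 46.5% in all bins, and the median GC content was 42.7%, 41.4% and 40.2%, respectively. The median HU share of the HU-higher bins was 10.5 per 10,000 against 5.26 for MMS, and in the MMS-higher bins the median MMS share was 3.48 against 0.733 for HU. The bins were also put into 5 classes of equal numbers by gene content. The richest class held 30.8% and 31.4% of the HU peaks, 29.8% and 30.1% of the MMS peaks and 35.6% and 33.5% of the untreated peaks. The drugs were thus close there. In the class next to it the HU lists had 34.4% and 34.9% and the MMS lists 28.9% and 28.7%. Neighbouring bins often had the same order. The longest unbroken stretches with HU higher were 7 bins each, chr17:38000001-45000000 with 861 and 812 HU peaks and 95 and 61 MMS peaks, and chr22:36000001-43000000 with 949 and 940 HU peaks and 101 and 47 MMS peaks. The longest with MMS higher was chr10:116000001-127000000, 11 bins with 250 and 197 HU peaks and 91 and 69 MMS peaks.

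Of the HU-higher bins, the largest excess was at chr2:38000001-39000000, which held 184 and 181 HU peaks, 5 and 5 MMS peaks and 2 and 4 peaks of untreated cells. Its mean share was 24.5 ± 2.02 per 10,000 under HU and 4.44 ± 0.481 under MMS (SD, n = 2 lists each), a log2 difference of 2.44 ± 0.37 (SE; limma, adjusted p = 0.00157). The genes with the most HU peaks there were ARHGEF33 (18 and 16), ATL2 (14 and 12), which encodes an ER membrane GTPase, and GALM (14 and 12), a sugar epimerase, but only 68 and 70 of the HU peaks lay in gene bodies. At chr3:196000001-197000000 there were 204 and 176 HU peaks and 5 and 7 MMS peaks (log2 difference 2.27 ± 0.36, limma adjusted p = 0.00158), and the genes with the most HU peaks were UBXN7 (17 and 11), PCYT1A (10 and 10) and the transferrin receptor gene TFRC (9 and 10). At chr1:151000001-152000000, 197 and 191 HU peaks stood against 10 and 7 MMS peaks (1.78 ± 0.31, limma adjusted p = 0.00205), and POGZ, with 18 and 9 HU peaks, had no MMS peak. The bin at chr11:118000001-119000000 held 178 and 160 HU peaks and 5 and 6 MMS peaks (2.21 ± 0.36, limma adjusted p = 0.00158), among them 10 and 3 HU peaks and no MMS peak in KMT2A, a histone methyltransferase gene. At chr2:231000001-232000000 there were 159 and 157 HU peaks and 4 and 4 MMS peaks (2.55 ± 0.41, limma adjusted p = 0.00158), and ARMC9, with 21 and 21, held the most HU peaks of its genes. In these 5 bins the untreated lists held 0 to 8 peaks each, but these lists are short. The mean share of untreated cells was 5.45 to 13.4 per 10,000. In each of the 5 bins it lay above the mean MMS share (3.55 to 7.44) and below the mean HU share (21.2 to 25.99). At chr3:196000001-197000000 it was close to that of MMS, at 5.45 against 5.39. The untreated shares rest on few peaks.

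The 3 further HU-higher bins, named for their fold in limma, were sparser. For a bin without MMS peaks that fold depends on the prior count. At chr1:101000001-102000000 the HU lists had 84 and 70 peaks and the MMS lists none, so the HU share was at least 7.77-fold higher (lower limit 6.24). Of these HU peaks 1 and 4 lay in gene bodies, and the bin holds 3 protein-coding genes, the diphthamide synthesis gene DPH5, the sphingosine receptor gene S1PR1 and OLFM3. At chr6:70000001-71000000 there were 18 and 21 HU peaks and no MMS peak, at least 1.97-fold higher (lower limit 1.53). At chr3:57000001-58000000 there were 73 and 66 HU peaks against 0 and 2 MMS peaks, a ratio of shares of 10.5 (95% exact binomial interval 2.86 to 87.7). Here and elsewhere the intervals cover counting error only.

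The MMS-higher bins with the largest excess lay at chromosome ends, where untreated cells had at least as large a share, and most of these peaks overlapped a peak of untreated cells. At chr9:1-1000000 the MMS lists had 134 and 148 peaks, the HU lists 50 and 55, and the lists of untreated cells 119 and 143. The mean share was 126 ± 22.3 per 10,000 under MMS, 7.06 ± 1.14 under HU (SD, n = 2 lists each) and 290 in untreated cells, and the log2 difference of HU against MMS was -4.14 ± 0.20 (SE; limma, adjusted p = 2.19e-07). Although the HU lists were the longest, both held fewer peaks in this bin than any MMS or untreated list. The same order was seen at chr17:1-1000000, with 82 and 60 MMS peaks, 32 and 36 HU peaks and 113 and 97 peaks of untreated cells (-3.75 ± 0.21, limma adjusted p = 6.47e-07). At chr21:46000001-46709983 there were 64 and 46 MMS peaks and 48 and 50 HU peaks (-2.86 ± 0.20, limma adjusted p = 5.17e-06), and at chr17:82000001-83000000 63 and 55 MMS peaks and 108 and 126 HU peaks (-1.73 ± 0.19, limma adjusted p = 2.81e-04). Untreated cells had 77 and 72 peaks in the bin on chromosome 21 and 104 and 82 in that on chromosome 17. At chr9:1000001-2000000 untreated cells had 150 and 124 peaks, more than MMS (17 and 20) or HU (16 and 13), and the MMS share was 8.43 times that of HU (95% exact binomial interval 5.05 to 14.2). When every peak that overlaps a peak of untreated cells was left out, chr9:1-1000000 kept 1 and 3 MMS peaks and no HU peak, its difference in mean share fell from -119 to -1.98 per 10,000, and it no longer reached the filter. In the same setting the difference was -11.9 in place of -57.7 at chr17:1-1000000 and -7.73 in place of -41.6 at chr21:46000001-46709983, both still called in limma (adjusted p = 3.70e-04 and 8.49e-04), and -3.43 in place of -36.3 at chr17:82000001-83000000, which no longer passed (limma adjusted p = 0.225). The excess of MMS in these bins was thus for the most part in places that untreated cells marked as well.

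The 3 MMS-higher bins named for their fold lay away from the ends and held few peaks in every list, and leaving out the peaks shared with untreated cells took away none of their HU or MMS peaks. At chr16:65000001-66000000 MMS had 9 and 10 peaks and HU none, so the MMS share was at least 41.9-fold higher (lower limit 30.8), and only MMS replicate 2 had any of these peaks (2) in a gene body. At chr6:40000001-41000000 the numbers were 8 and 13 under MMS and 1 and 0 under HU, and 3 and 2 of the MMS peaks lay in LRFN2, the only protein-coding gene there. At chr16:79000001-80000000 there were 6 and 4 MMS peaks and no HU peak, a share at least 22.03-fold higher (lower limit 14.8), in a bin that holds the end of WWOX and MAF, which encodes a transcription factor. Over all 876 MMS-higher bins, the mean share of untreated cells was above that of MMS in 189 and above that of HU in 519. Of the 564 HU-higher bins, the share of untreated cells was above that of HU in 52 and above that of MMS in 255.

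Chromosome ends were therefore examined as a class. Within 1 Mb of an end lay 1.62% and 1.78% of the HU peaks, 6.07% and 5.95% of the MMS peaks and 20.3% and 20.6% of the peaks of untreated cells, where 1.35% of the assembled bases lie. Both MMS lists were above both HU lists. More than 20 Mb from an end the order was reversed, with 66.9% and 66.2% of the HU peaks and 58.6% and 60.0% of the MMS peaks. With peaks that overlap a peak of untreated cells left out, which removed 3.82% and 4.14% of the HU peaks and 7.03% and 6.67% of the MMS peaks, the share within 1 Mb of an end was 1.22% and 1.29% under HU and 2.84% and 2.55% under MMS. Of the 8 bins named for HU all passed in limma in that setting, and of the 8 named for MMS 6 passed.

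**Figure D2:**
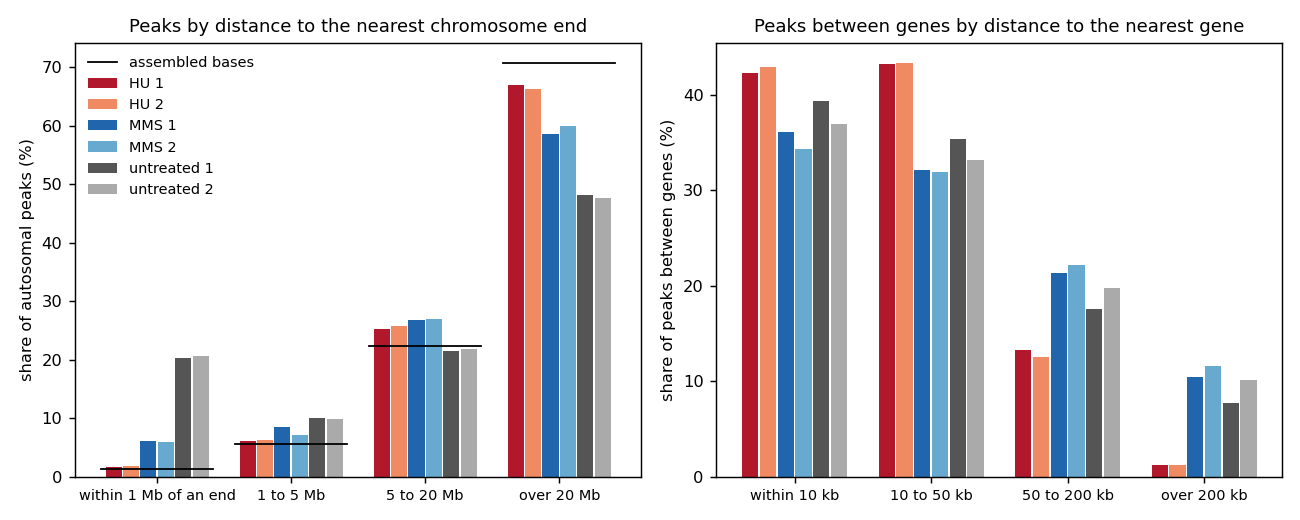
Bars give each list's share of peaks by distance to the nearest chromosome end (left, percent of autosomal peaks, with black lines for assembled bases) and, for peaks between genes, by distance to the nearest protein-coding gene (right, percent of peaks between genes). Untreated lists have over 20% of their peaks within 1 Mb of an end, the MMS lists about 6% and the HU lists under 2%, and over 200 kb from a gene lie 10.4% and 11.6% of the MMS peaks between genes and 1.26% and 1.19% of the HU peaks.

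By whole chromosome, HU was higher on 7 of 22 autosomes (31.8%) and MMS on 9 (40.9%), and the lists overlapped on the others (2, 3, 10, 17, 20 and 22). HU was higher on chromosomes 1, 6, 11, 12, 14, 15 and 19. Chromosome 1 had the largest excess, with 12.4% and 12.7% of the HU peaks and 10.1% and 9.58% of the MMS peaks, against 8.36% of the assembled bases. The gene-dense chromosome 19 held 4.57% and 4.91% of the HU peaks and 4.25% and 3.13% of the MMS peaks. MMS was higher on chromosomes 4, 5, 7, 8, 9, 13, 16, 18 and 21. Chromosome 9 led these, with 6.15% and 6.64% of the MMS peaks, 3.71% and 3.78% of the HU peaks and 10.7% and 10.98% of the peaks of untreated cells. On chromosome 18 the shares were 2.02% and 2.14% under MMS and 1.45% and 1.27% under HU, and on chromosome 21 1.68% and 1.64% under MMS and 0.948% and 0.902% under HU. The exact p was 0.333 for each of these, the smallest it can be. On chromosome 6 and chromosome 16 the order depended on the treatment of the lists: with equal numbers of the strongest peaks the difference of HU minus MMS was -0.19 percentage points on chromosome 6 and 0.698 on chromosome 16, against 0.394 and -0.40 with all peaks. With peaks shared with untreated cells left out, the difference on chromosome 9 was -1.52 in place of -2.65 points, on chromosome 21 -0.408 in place of -0.737, and on chromosome 6 0.207.

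**Figure D3:**
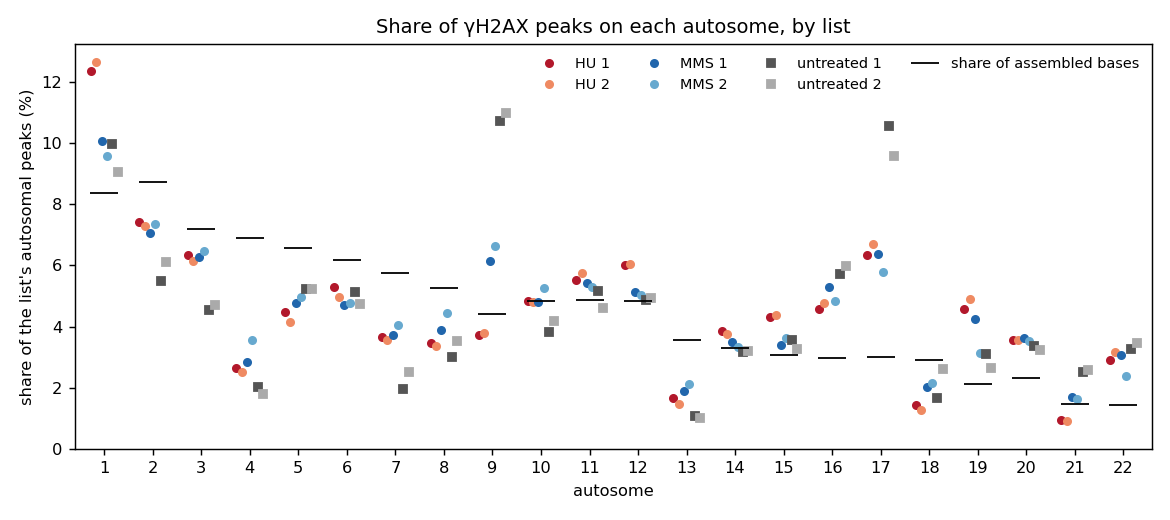
Points give the percent of each list's autosomal peaks on each of the 22 autosomes for the 4 treated lists (circles) and the 2 untreated lists (squares), and black bars give the percent of assembled bases. HU stands highest on chromosome 1, and on chromosome 9 the untreated lists stand above MMS and MMS above HU.

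The share of peaks in gene bodies was higher under MMS. Of the HU peaks 55.3% (95% Wilson interval 55.0 to 55.7) and 55.2% (54.9 to 55.6) had their midpoint in a protein-coding gene, and of the MMS peaks 65.3% (64.4 to 66.1) and 65.4% (64.5 to 66.3). Untreated cells had 50.7% and 50.8%, and protein-coding genes cover 43.9% of the assembled bases. The difference of HU minus MMS was -10.1 percentage points (exact p = 0.333, the smallest possible), many times the spread between the lists of a drug. It was -16.8 with equal numbers of the strongest peaks and -16.5 when covered bases were counted in place of peaks. Both MMS lists were above both HU lists within each of the 22 chromosomes, with differences of HU minus MMS from -14.7 to -5.34 points. They were also above in 4 of 5 classes of equal numbers of bins ordered by gene content, with a difference of -16.5 points in the richest, where 83.1% and 82.9% of MMS peaks and 66.8% and 66.3% of HU peaks lay in genes. In the gene-poorest class the order was reversed, with 17.3% and 15.7% of the HU peaks and 10.6% and 11.9% of the MMS peaks in genes.

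So in gene-rich bins HU peaks lay between the genes more often than MMS peaks did. The gene-poorest class, with 19.8% of the bases, held 1.42% and 1.26% of the HU peaks and 3.93% and 4.17% of the MMS peaks. Of the peaks between genes, 42.3% and 42.9% under HU and 36.2% and 34.3% under MMS lay within 10 kb of a gene, and 43.2% and 43.3% and 32.1% and 31.9% lay 10 to 50 kb away. Over 200 kb from any gene were 1.26% and 1.19% of the HU peaks between genes, 10.4% and 11.6% of those of MMS and 7.73% and 10.1% of those of untreated cells. HU was therefore lower far from genes and MMS lower in the spaces around genes, and the lists of the drugs did not overlap in these classes.

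Within genes, the difference lay mostly in introns. Introns held 50.1% and 49.6% of the HU peaks and 57.5% and 59.0% of the MMS peaks, for 41.1% of the bases, while exons outside start regions held 7.34% and 7.46% under HU and 8.85% and 7.74% under MMS, for 3.47% of the bases. The regions within 1 kb of a transcription start held 1.27% and 1.45% of the HU peaks and 1.11% and 0.994% of the MMS peaks, for 1.27% of the bases. Both the start difference of 0.306 points and the exon difference of -0.892 points depended on how a peak was assigned. When a peak that overlaps the region by 1 bp was counted, the start difference was 1.44 points and the exon difference turned to 1.04, with HU higher. With equal numbers of the strongest peaks the start difference was 0.54 and the intron difference -14.5 points, against -8.39 with all peaks, and without MMS replicate 1 the exon difference was -0.337. HU peaks were wider, with medians of 764 and 743 bp against 519 and 531 bp under MMS. Along the gene, the 10% nearest the start held 14.3% and 14.4% of the HU peaks, 11.8% and 12.4% of the MMS peaks and 10.997% and 11.6% of the peaks of untreated cells.

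Long genes took a larger part of the MMS peaks. Genes above 500 kb, which make up 20.7% of the gene bases, held 2.39% and 2.31% of the gene-body peaks under HU, 6.03% and 7.37% under MMS, and 5.28% and 6.74% of those of the untreated lists. Genes of 300 to 500 kb held 4.20% and 3.89% in the HU lists against 8.49% and 9.26% in the MMS lists. Genes of 100 to 300 kb held 26.6% and 25.9% against 31.8% and 33.9%, a difference of -6.63 points that was -12.4 with equal numbers of the strongest peaks. The reverse held for genes of 20 to 100 kb, with 53.2% and 53.1% under HU and 41.3% and 38.7% under MMS. In genes below 20 kb HU had 13.7% and 14.8% and MMS 12.4% and 10.7%, a difference of 2.69 points that was 8.76 points with equal numbers of the strongest peaks. No class overlapped between the drugs, and both drugs placed fewer peaks in genes above 300 kb than their length would give.

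In the 500 bases around each midpoint, runs of A or T and, by less, the number of CG dinucleotides were higher under HU. Runs of 10 or more A on either strand (AAAAAAAAAA, a window counted once however many it holds) were present in 18.4% and 17.9% of the HU windows, 9.43% and 10.5% of the MMS windows and 8.24% and 9.50% of those of untreated cells, and in 15.3% of all 500-base windows of the autosomes. The difference of 8.19 percentage points (exact p = 0.333, the smallest possible) was 9.75 with equal numbers of the strongest peaks. Both HU lists were above both MMS lists on each of the 22 chromosomes, by 3.75 to 11.3 points. The order was the same in gene bodies, with 17.6% and 17.0% for HU against 9.82% and 10.8% for MMS, and between genes, with 19.3% and 19.1% against 8.71% and 9.93%. A match is a description of the window, not of what happened at the run. The median GC content of the windows did not separate the drugs, with 44.4% and 45.0% under HU and 45.8% and 44.2% under MMS, for 40% in all windows. Within chromosomes its mean was higher under MMS on 18 of 22, with both MMS lists above both HU lists on 7, and within classes of gene content in all 5, with 1 not overlapping. The mean number of CG dinucleotides per window was 5.47 and 5.67 under HU and 5.46 and 4.98 under MMS, so that the nearest lists almost met, and the difference of 0.351 was 0.109 without MMS replicate 2.

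A peak with such a run from each of the 2 bins named first is shown with the run in capitals, chosen after the values were seen as the strongest peak of the bin that holds one in these 200 bases (GRCh38, plus strand).
HU 1, chr2:38465563-38465762, between genes: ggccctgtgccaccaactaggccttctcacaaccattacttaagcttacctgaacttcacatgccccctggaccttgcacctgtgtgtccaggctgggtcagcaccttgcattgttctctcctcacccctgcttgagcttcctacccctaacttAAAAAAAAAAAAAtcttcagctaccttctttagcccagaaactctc
MMS 1, chr9:811855-812054, between genes: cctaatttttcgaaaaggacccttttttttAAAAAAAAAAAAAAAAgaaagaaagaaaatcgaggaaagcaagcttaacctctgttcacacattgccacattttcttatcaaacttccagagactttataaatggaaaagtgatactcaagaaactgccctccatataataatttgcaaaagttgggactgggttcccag

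The runs shown are 13 and 16 bases long. The HU peak on chromosome 2 spans 38463139 to 38468186 and the MMS peak on chromosome 9 spans 811421 to 812488, with fold enrichments of 3.03 and 2.86.

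**Figure D4:**
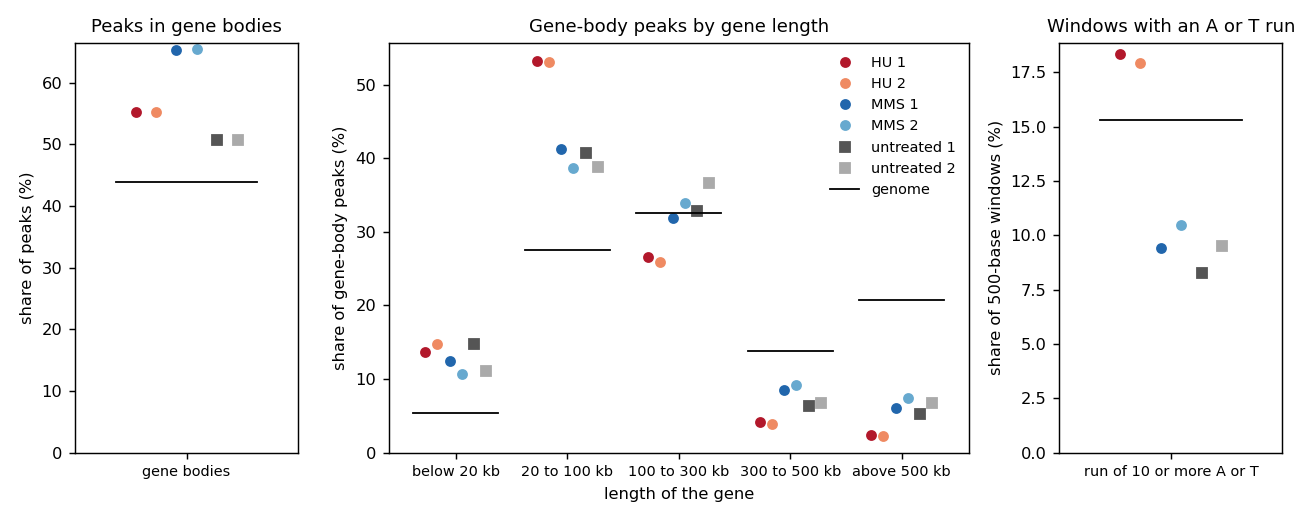
Circles are the HU and MMS lists and squares the untreated lists, with black lines for the genome. The left panel gives the percent of peaks in gene bodies, the middle panel the percent of gene-body peaks in genes of each length class, and the right panel the percent of 500-base windows with a run of at least 10 A or T, where both HU lists (18.4% and 17.9%) stand above the genome and both MMS lists (9.43% and 10.5%) below it.

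Protein-coding genes were compared one by one. Both HU lists had at least 1 peak in 8683 of 19126 genes and both MMS lists in 2317, and 1916 were found under both drugs, which is 22.1% of the HU genes and 82.7% of the MMS genes. With equal numbers of the strongest peaks the numbers were 1767 and 2137 genes, and the 533 in common were 30.2% and 24.9% of them. A mean share of at least 1 per 10,000 was reached by 1565 genes, of which HU was higher in 323 (20.6%), MMS in 631 (40.3%), and 611 overlapped. This balance depends on the filter: with no filter HU was higher in 4259 genes and MMS in 1589, and among genes with at least 10 peaks over the 4 lists in 1248 and 709. A gene passes the share filter with few MMS peaks but needs many HU peaks, since 1 peak is a larger share of a short list. Without a filter the counts lean towards HU, since a gene with few HU peaks would often have no MMS peak at an equal share. In limma, 26 of the 1565 genes (1.66%) were called with HU higher and 110 (7.03%) with MMS higher. With limma's usual unscaled prior count, which raises low counts more in the short lists, the numbers were 53 and 408. Without HU replicate 1 they were 0 and 9, without HU replicate 2 they were 0 and 3, and without MMS replicate 1 or MMS replicate 2 they were 222 and 138 or 189 and 120. With the replicate number as a block, 0 genes were called in either direction. The number of genes called thus differed widely between settings and between the lists left out, where the lone list is again assumed to vary like the pair of the other drug. The numbers of peaks in each list are given for the genes below.

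Length and distance to a chromosome end were compared between the genes of each direction. The median length was 153 kb for the 631 MMS-higher genes, 99.2 kb for the 323 HU-higher genes and 114 kb for all 1565. Among all 1565 tested genes MMS was higher in 40.3% and HU in 20.6%. Of the 65 tested genes within 1 Mb of an end, MMS was higher in 51 and HU in 5. Of the 91 tested genes above 500 kb, MMS was higher in 74 and HU in 6, and of the 134 of 300 to 500 kb in 88 and 12. Of the 15 tested genes below 20 kb, MMS was higher in 13 and HU in none. The share filter lets a gene in on few MMS peaks, so these counts lean towards MMS. The order of the lists was also read with no filter, which leans towards HU. There HU was higher in 22.3% of all genes and MMS in 8.31%. Without the filter MMS was higher in 111 and HU in 13 of the 303 genes above 500 kb, and in 153 and 25 of the 436 of 300 to 500 kb. Below 20 kb the order was the reverse of that among the tested genes, with HU higher in 1652 and MMS in 250 of 8526. Neither count is free of such a lean. Within 1 Mb of an end MMS was higher in 104 and HU in 63 of 791 genes. With peaks shared with untreated cells left out, 43 genes within 1 Mb of an end could be tested, MMS higher in 32 and HU in 3. Of 93 genes above 500 kb tested in that setting, MMS was higher in 73 and HU in 6. Over all 1613 genes tested in that setting, MMS was higher in 650 and HU in 322.

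KANK1, whose product regulates actin polymerisation, had the largest difference, almost all of it in peaks that untreated cells share. It lies at chr9:470295-746103 and held 53 and 57 MMS peaks, 24 and 21 HU peaks and 25 and 38 peaks of untreated cells. Its mean share was 49.0 ± 7.80 per 10,000 under MMS (SD, n = 2 lists) and 3.00 in both HU lists, a ratio of 16.2 (95% exact binomial interval 11.3 to 23.4; limma adjusted p = 0.0145). Its neighbour DOCK8, an exchange factor for small GTPases that lymphocytes need for migration, had 47 and 55 MMS peaks, 18 and 23 HU peaks and 49 and 52 untreated peaks (chr9:211257-465255, ratio 16.4, limma adjusted p = 0.0145). DMRT1, a transcription factor gene of the testis at chr9:841697-969090, had 12 and 17 MMS peaks and 3 and 3 HU peaks. Exons held 6 and 8 of the MMS peaks of KANK1 and 5 and 4 of its HU peaks. With peaks shared with untreated cells left out, KANK1 had 1 and 0 MMS peaks, DOCK8 0 and 3 and DMRT1 none, with no HU peak in any of them, and none reached the filter.

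The genes at the ends of chromosome 17 showed the same order. VPS53, a gene of a vesicle tethering complex at chr17:508668-714839, held 36 and 30 MMS peaks and 9 and 16 HU peaks, a ratio of shares of 17.4 (limma adjusted p = 0.0145). TBCD, a tubulin folding cofactor gene at chr17:82752065-82945914, held 38 and 33 MMS peaks and 11 and 15 HU peaks, a ratio of 18.0 (limma adjusted p = 0.0145). NXN at chr17:799310-979776, which encodes the redox protein nucleoredoxin, held 11 and 3 MMS peaks and no HU peak, so the MMS share was at least 30.8-fold higher (lower limit 21.9), while untreated cells had 39 and 28 peaks. On chromosome 21, DIP2A had 24 and 15 MMS peaks and 17 and 17 HU peaks, a ratio of 7.58. The untreated lists held 33 to 44 peaks in each of DIP2A, VPS53 and TBCD, more than any treated list. With peaks shared with untreated cells left out, VPS53 had 3 and 5 MMS and 3 and 1 HU peaks and TBCD 3 and 2 and 1 and 0, and neither passed in limma (adjusted p = 0.0961 and 0.0686). DIP2A then had 0 and 1 MMS and 1 and 1 HU peaks and NXN 3 and 1 MMS and no HU peaks, and these did not reach the filter.

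A second set of MMS-higher genes lay away from the ends and had 0 to 5 peaks in a list of untreated cells. Apart from CTBP2, at 178 kb, these genes were longer than 500 kb. SNX29, a sorting nexin gene of 598 kb on chromosome 16 (chr16:11976734-12574287), had 16 and 15 MMS peaks, 23 and 12 HU peaks and 1 and 0 untreated peaks, a ratio of shares of 5.85 (limma adjusted p = 0.0310). The neuronal splicing factor gene RBFOX1, at 2474 kb the longest of the genes named here, had 7 and 6 MMS peaks and no HU peak, so that its share was at least 28.6-fold higher under MMS than under HU (lower limit 20.1; limma adjusted p = 0.0145). Untreated cells had 0 and 5 peaks in RBFOX1, so their lists differed, and their mean share of 5.78 was not below the 5.74 under MMS. CDH13, the gene of a cadherin without a cytoplasmic tail, and the corepressor gene CTBP2 each had 8 and 2 MMS peaks and no HU peak (limma adjusted p = 0.0454 each). MMS replicate 1 held most of the peaks in both. In SNX29, CDH13 and CTBP2 the mean share of untreated cells was below that of MMS. Leaving out the peaks shared with untreated cells took away none of the MMS peaks of these 4 genes, and SNX29 and RBFOX1 still passed in limma (adjusted p = 0.0225 each), while CDH13 and CTBP2 did not (adjusted p = 0.0527 each). No exon peak was found in SNX29, RBFOX1, CDH13 or CTBP2 in any of the 4 lists.

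Of the 26 genes called in limma with HU higher, 25 had no MMS peak, as against 25 of all 323 HU-higher genes. These 25 were all the tested genes without an MMS peak, and they reached the share filter on HU peaks alone. Their limma p-values rest on the 0 MMS peaks and add no support to the counts. SLC1A2, a glutamate transporter gene of 169 kb on chromosome 11 (chr11:35251205-35420507), had 37 and 37 HU peaks, 0 and 0 MMS peaks and 2 and 1 untreated peaks, so its share was at least 3.73-fold higher under HU (lower limit 2.96; limma adjusted p = 0.0145). LOC400499 on chromosome 16 had 33 and 29 HU peaks and no MMS peak, at least 3.13-fold higher (lower limit 2.47). Untreated cells had 3 and 4 peaks in it, and their mean share of 7.76 per 10,000 was above the 4.14 under HU. LIPA, the lysosomal acid lipase gene on chromosome 10, had 36 and 30 HU peaks and 1 MMS peak in each list, a ratio of 4.99 (95% exact binomial interval 1.33 to 42.1; limma adjusted p = 0.0429). ADCY10, the soluble adenylyl cyclase gene, had 27 and 22 HU peaks, HEATR4 22 and 25, and ELAPOR1 26 and 21. AHNAK, which encodes a very large scaffold protein, had 20 and 22, CFAP251, a gene of the cilium, 21 and 21, and the cytokine gene IL19 22 and 19. LGSN had 23 and 18, the small GTPase gene RAP1A 21 and 19, and UBAC2 21 and 18. None of these 9 genes had an MMS peak, their HU share was at least 1.97- to 2.47-fold higher (lower limits 1.53 to 1.94), and the limma adjusted p was 0.0145 to 0.0148. In IL19, RAP1A and UBAC2 the untreated lists had no peak. The mean HU shares of the 9 genes were 2.601 to 3.263 per 10,000, beside the 1.32 that 0 peaks allow under MMS. With peaks shared with untreated cells left out, 11 of the 12 genes named for HU passed in limma and LIPA did not (adjusted p = 0.0853).

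**Figure D5:**
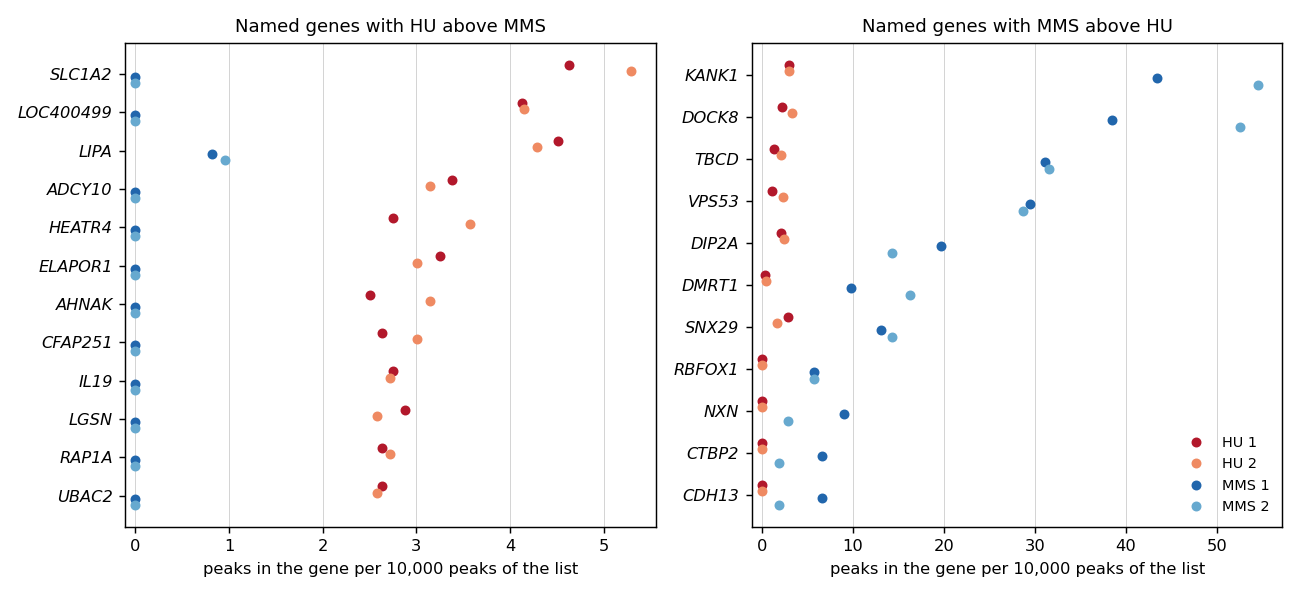
Points give the number of peaks in each named gene per 10,000 autosomal peaks, for each of the 4 treated lists, with the 12 genes named for HU on the left and 11 named for MMS on the right. On the left 11 genes have both MMS lists at 0, on the right 4 genes have both HU lists at 0, and the x axes differ in range.

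Groups of genes were then read by their counts. Of 23 common fragile site and other very long genes, 10 passed the share filter, and MMS was higher in 8 and HU in 2, beside 40.3% and 20.6% of all tested genes. The median difference in share was -2.74 per 10,000 over these 10, beside -0.511 over all 1565. The share filter leans towards MMS, so other filters were read as well, although no filter leans towards HU. With no filter MMS was higher in 10 and HU in 2 of the 23, beside 8.31% and 22.3% of all genes. Of the 5 with at least 10 peaks, MMS was higher in 3 and HU in 2, beside 20.5% and 36.1% of all such genes. WWOX, an oxidoreductase gene at the fragile site FRA16D, had 3 and 6 MMS peaks and no HU peak (limma adjusted p = 0.0323). AUTS2 had 7 and 7 MMS peaks and 11 and 6 HU peaks (limma adjusted p = 0.0416), and the reelin adaptor gene DAB1 5 and 7 and 1 and 5 (limma adjusted p = 0.0465). The 2 exceptions were neighbours on chromosome 14. RAD51B, a gene of homologous recombination, held 80 and 69 HU peaks and 6 and 7 MMS peaks, and GPHN, which encodes the receptor anchor gephyrin, 71 and 49 and 5 and 4 (limma adjusted p = 0.150 and 0.157). All 23 genes together held 21.5 and 19.2 peaks per 10,000 under HU, 39.3 and 51.6 under MMS, and 46.0 and 41.6 without treatment, below the 111 per 10,000 that their length would give.

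Among the 303 genes above 500 kb, 91 passed the filter and 28 were called with MMS higher and 1 with HU higher in limma, beside 7.03% and 1.66% of all 1565 tested genes. ZFHX3, a homeobox gene of 1109 kb, had 10 and 8 MMS peaks and 2 and 3 HU peaks (limma adjusted p = 0.0147). PALM2AKAP2, at 532 kb, had 57 and 55 HU peaks and 3 and 4 MMS peaks (limma adjusted p = 0.0934). Together these genes held 132 and 128 peaks per 10,000 under HU, 395 and 483 under MMS and 268 and 344 without treatment, beside 910 expected from their length.

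Of 34 B-cell genes, 7 passed the filter, with MMS higher in 4 and HU in 1, near the 40.3% and 20.6% of all tested genes, and none was called in limma. With no filter MMS was higher in 7 and HU in 11 of the 34, beside 8.31% and 22.3% of all genes. PAX5, the transcription factor that sets B-cell identity, had 8 and 6 MMS peaks, 17 and 19 HU peaks and 1 and 0 untreated peaks (limma adjusted p = 0.0686). FOXP1 had 1 and 5 MMS peaks and 0 and 2 HU peaks and IRF8 4 and 2 and 7 and 7, whereas CCND3, the cyclin D3 gene, had 2 and 0 MMS peaks and 16 and 17 HU peaks. RHOH had 8 and 9 HU peaks and IKZF3 4 and 5, with no MMS peak in either, and neither reached the filter.

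Few genes of the pathways that answer these drugs held enough peaks. Their counts after the filter stand beside 40.3% of all tested genes with MMS higher and 20.6% with HU higher. Their counts with no filter stand beside 8.31% and 22.3% of all genes. With so few genes they were not set apart from these. Of 24 genes of base excision and alkylation repair, 4 passed the filter, with MMS higher in 2, HU in none and no call in limma, and with no filter MMS was higher in 3 and HU in 4. ALKBH3, a dioxygenase that removes methyl groups from DNA, had 1 and 4 MMS peaks and 5 and 5 HU peaks, and LIG3, the ligase of base excision repair, 4 and 0 and 0 and 1. POLB, the polymerase of that pathway, had 12 and 9 HU peaks and 0 and 1 MMS peaks. Of 25 genes of nucleotide supply, 3 passed, 1 higher under each drug, and with no filter MMS was higher in 4 and HU in 5. SAMHD1, which degrades deoxyribonucleotides, had 16 and 9 HU peaks and 0 and 1 MMS peaks (limma adjusted p = 0.224), and RRM2, the subunit of ribonucleotide reductase that HU inactivates, 5 and 4 HU peaks and no MMS peak. Of 34 genes of ATR signalling and fork repair, 4 passed, with MMS higher in 2 and HU in 1, and with no filter MMS was higher in 4 and HU in 9. PRKDC, which encodes the catalytic subunit of DNA-PK, had 4 and 5 MMS peaks and 4 and 2 HU peaks and was called with MMS higher (limma adjusted p = 0.0406). RAD50 had 14 and 8 HU peaks and 1 and 0 MMS peaks, FANCD2 7 and 7 HU peaks and no MMS peak, and SMARCAL1 6 and 6 HU peaks and 3 and 1 MMS peaks. LIG3, POLB, RRM2, RAD50 and FANCD2 did not reach the filter and were not tested.

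The zinc finger genes of chromosome 19 held more of the MMS peaks. These 250 genes, many of which encode KRAB repressors, together had 56.5 and 46.8 peaks per 10,000 under MMS, 21.7 and 20.3 under HU and 23.02 and 11.6 in untreated cells, beside 25.8 expected from their length. Only 3 passed the filter, all higher under MMS, beside 40.3% of all tested genes, and none was called in limma. With no filter MMS was higher in 18 and HU in 16 of the 250, beside 8.31% and 22.3% of all genes. ZNF529 had 1 and 4 MMS peaks and 2 and 0 HU peaks. ZNF541 had 15 and 13 HU peaks, ZNF175 5 and 7 and ZNF627 5 and 6, with no MMS peak in any of them, and these did not reach the filter. The 81 ribosomal protein genes had 13.9 and 21.98 per 10,000 under MMS and 10.1 and 9.73 under HU, and the 391 olfactory receptor genes 5.74 and 3.82 under MMS, 1.75 and 0.858 under HU and 20.9 and 18.5 in untreated cells. The 84 histone genes held at most 1 MMS peak in a list, and in the 63 protocadherin genes, which share long nested transcripts, a single peak is counted in several genes, so that the 0 and 21 counts under MMS cannot be read as separate peaks.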

How the data were processed

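γH2AX ChIP-seq was performed on 2 cultures each of untreated, aphidicolin-, HU- and MMS-treated cells. The authors mapped the reads to GRCh38 (Bowtie2), discarded poorly mapped and duplicate reads and blacklisted regions, and ran MACS2 in broad mode separately for every replicate. In the deposited files, fold enrichment is a ratio and the p-value is on a −log10 scale, and the score and q-value columns were not used. How many peaks a caller reports depends on depth, which is unknown here. Between 14 and 59 peaks per HU or MMS list that lay off the autosomes were left out.

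Peaks were assigned by midpoint to 1 Mb bins, chromosomes, RefSeq protein-coding genes and GENCODE 44 exons, introns and starts. The reference sequence had the chromosome lengths of GRCh38. Shares were compared with exact permutation tests (SciPy 1.17.1) and, for bins and genes, with limma 3.58.1 in R 4.3.3 on log2 shares with precision weights and a prior count of 0.5 scaled to list length. The fit first planned used limma's voom with an unscaled prior count and, for bins, no filter. It gave many false calls for bins on simulated lists, and some for genes, so the prior was scaled and bins with a mean share below 1 per 10,000 were left out, as for genes, and the planned fit is given as an alternative added after the data were seen. Tested on simulated lists, the fit used here gave few false calls but found only some of the changed bins and few of the changed genes. The simulation gave all lists the same spread beyond counting error, so its rate of false calls need not hold for these data. For bins and for genes, in each direction, the features named were those that did not overlap and passed in limma: the 8 genes or 5 bins with the largest difference in share and 4 further genes or 3 further bins with the largest fold in limma. List members were named where they were among the 3 of their list with the largest difference in either direction; 1 gene the rule selects is not reported here. The comparison, lists and rules were chosen with earlier results of these data known. Alternatives were equal numbers of the strongest peaks, the stronger 50% of each list, other rules of overlap, covered bases, peaks shared with untreated cells left out, other bins, annotation, filters and models, and leaving out each replicate.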

Additional observations from a re-analysis of the deposited data

How the results depend on the processing

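The HU minus MMS differences in gene-body share, start, intron and between-gene shares, gene length classes, CG number and A or T runs kept their direction under every alternative run for them. The exon difference turned to 1.04 points when 1 bp of overlap counted, and the difference in median GC, not separated with all peaks, was 0.70 with equal numbers, 0.30 with the stronger 50% and between -1.1 and 0.50 without single replicates. On chromosome 16 the difference was 0.698 with equal numbers, 0.138 with the stronger 50% and 0.237 by covered bases, and on chromosome 6 it was -0.19 with equal numbers.

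Counts of bins and genes moved more; the cause was not tested. Bins with HU higher numbered 333 with equal numbers, 1019 with 500 kb bins and 148 with 5 Mb bins, and with MMS higher 240 with 5 Mb bins. In limma, bins with HU and MMS higher were 66 and 169 with equal numbers, 82 and 163 with 5 Mb bins, 57 and 152 with no filter, and 0 to 92 and 0 to 153 without single replicates. Genes with HU higher were 4259 with no filter, 1248 with at least 10 peaks and 361 to 555 without single replicates, and with MMS higher 1589 with no filter. Genes called in limma with HU and MMS higher were 62 with equal numbers (HU), 0 and 6 with the stronger 50%, 44 with GENCODE genes (MMS), 15 in limma-trend (HU), 1934 and 290 with no filter, 728 and 73 with at least 10 peaks, and 0 to 222 and 3 to 138 without single replicates. In the fit first planned, with an unscaled prior count and bins unfiltered, 259 and 1412 bins and 53 and 408 genes were called, and the 16 named bins and the 24 genes the rule selects all passed; this setting was added after the data were seen. With the replicate number as a block, 182 and 378 bins and 0 and 0 genes were called. Neither the labels nor the paper says whether equal replicate numbers pair the lists. The deviations of HU replicate 1 from 2 and of MMS replicate 1 from 2 had a correlation of -0.08 over 1628 bins. In short lists such deviations are noisy, so this value cannot settle it. All 24 of these genes lost their call under the block, and all 16 named bins without either MMS replicate, where the lone list is assumed to vary like the other pair. With peaks shared with untreated cells left out, 2 named bins and 10 of these genes lost theirs, and DMRT1 had no peak left. None of these genes or bins turned its direction.

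With 2 lists for each drug no exact test can pass 0.05, and a peak list cannot separate the treatment from depth.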
